A study of Homo sapiens with 11 samples.

Results

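The RNA recovered with wild-type RPS19 was described from the authors' list of windows and repeat elements enriched over size-matched input. All rows of that list were taken, with no selection on any measured value: 15402 windows and 79 repeat elements, of 195300 windows and 561 repeat elements over the lists of 3 immunoprecipitated (IP) proteins. WT IP comprised 3 replicates of HEK293T cells that overexpressed V5-tagged WT RPS19 from a transfected plasmid, crosslinked and precipitated with a V5 antibody. Its background was the size-matched input, 3 replicates of untransfected HEK293T cells whose lysate was not precipitated. At any window, recovery with RPS19 and a difference in RNA level between transfected and untransfected cells therefore cannot be told apart. The series also holds 3 replicates of IP from cells with the substitution R62W and 2 with R101H, used here as background only. HEK293T is an established human embryonic kidney line, so all samples come from 1 line. The labels name no change to the cells' own RPS19 genes.

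RPS19 is a protein of the small (40S) ribosomal subunit, and it is needed for late steps in maturation of the small subunit's RNA. Inherited loss of function of RPS19 or of other ribosomal proteins causes Diamond-Blackfan anemia, a failure of red cell production in the marrow. In eCLIP, ultraviolet light joins a protein to the RNA it touches, the RNA is fragmented, and the RNA that comes down with the antibody is sequenced beside input RNA cut from the same size range.

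The sequences printed here belong to windows that the results turn on, and each comes from RefSeq on GRCh38.p14. The first is the stretch before the annotated start of EEF1A1, the gene with the most IP counts, on the minus strand at chr6:73521033-73521282. It is shown because 3 of the most enriched windows lie over it. Capitals mark the letters TATATAA, which start 30 bases before the gene. The letters TATATAA, searched on both strands, occur in 849 (2.42%) of the 35116 RefSeq windows of 250 bases before a gene start.
EEF1A1 upstream: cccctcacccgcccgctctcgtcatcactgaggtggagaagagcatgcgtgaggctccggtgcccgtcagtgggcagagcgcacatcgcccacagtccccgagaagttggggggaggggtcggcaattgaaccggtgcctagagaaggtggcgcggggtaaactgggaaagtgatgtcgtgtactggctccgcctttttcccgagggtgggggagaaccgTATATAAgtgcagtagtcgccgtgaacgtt
The other sequences are mature microRNAs of hairpins that WT windows covered, with the seed, bases 2 to 8, in capitals. The first pair lies within RPS19, miR-16-5p is cut from a hairpin that 1 window covered in full, and miR-34a-5p comes from MIR34AHG. MIR34AHG is the gene with the second largest number of WT windows. No seed is shared among these 4.
hsa-miR-6797-5p: aGGAGGGAaggggcugagaacagga
hsa-miR-6797-3p: uGCAUGACccuucccuccccac
hsa-miR-16-5p: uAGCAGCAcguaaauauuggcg
hsa-miR-34a-5p: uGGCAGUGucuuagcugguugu

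A listed window was 4 to 100 bases long, with a median of 97. Enrichment is given in the authors' deposited table as a log2 odds ratio of IP over input, with the lowest, mean and highest replicate among those in which the window passed the authors' test. The limit that the values show is a highest q under 0.2 in at least 2 replicates. For a window that passed in all 3, these figures fix the 3 replicate values, although not which replicate each belongs to. Counts were pooled over replicates, so no depth per sample is known, and a pooled count is no library total. The labels do not say whether replicates were separate cultures.

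The WT windows held 2414455 pooled IP counts and 640403 pooled input counts, a ratio of 3.77. Without EEF1A1 and RPS19 the ratio was 2.49, and over windows that passed in all 3 replicates it was 7.49. Most windows rested on few reads: the median window had 49 IP counts and 11 input counts, and 520 windows (3.38%) had an input count of 0. The median of the authors' mean log2 odds ratio was 2.03, with quartiles at 1.55 and 2.67 and a full range from 0.43 to 9.14. In all, 3516 windows, 22.8% of the list, passed in all 3 replicates. Those windows had a median of 83 IP and 17 input counts, against 42 IP and 10 input counts for windows that passed in 2. Their median log2 odds ratio was 2.21, against 1.98 for windows that passed in 2. The 100 windows nearest the q limit had a median log2 odds ratio of 1.55 and 45 IP counts against 16.5 input counts. Windows just outside the limit are not analysed here.

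The list named 3307 genes, 38.0% of the 8697 genes listed for any of the 3 IP proteins. Most were marked at few places, since 1385 genes (41.9%) had a single window and 776 (23.5%) had at least 5. IP counts were far less evenly spread than windows. EEF1A1 and RPS19 together held 35.0% of all listed IP counts, and 100 genes held 68.1%. The plot of IP against input counts shows these genes apart from the rest of the list.

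**Figure D1:**
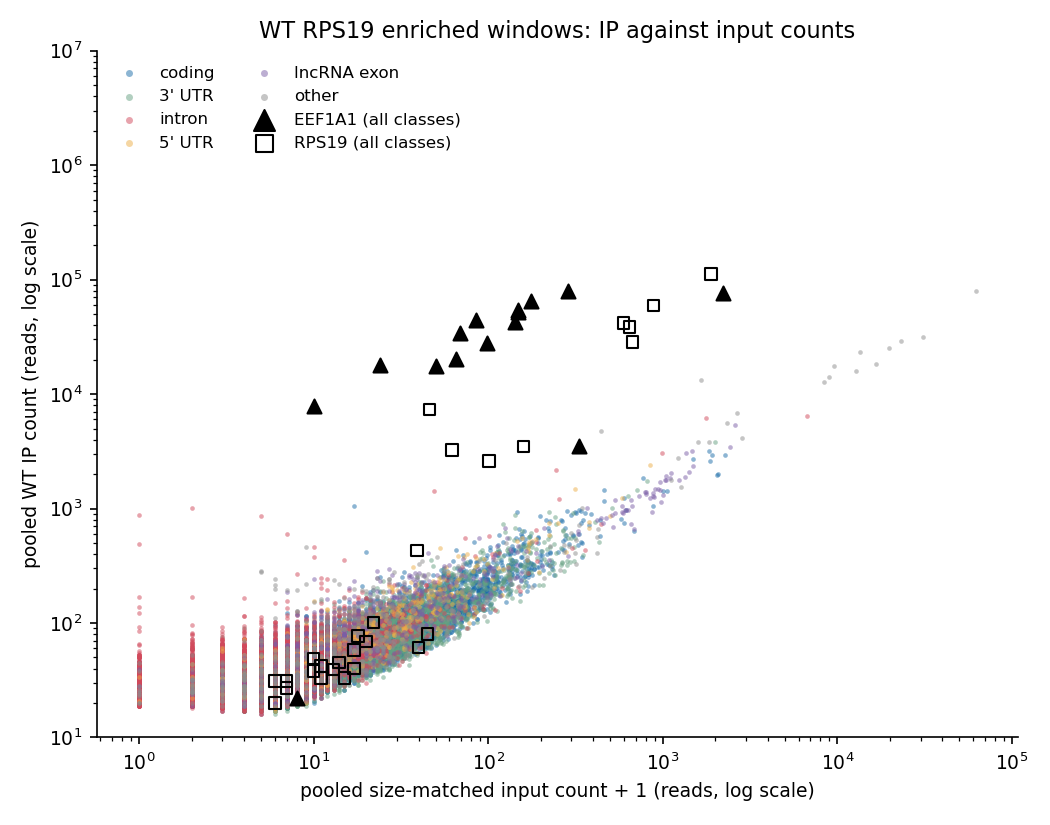
Pooled WT IP counts against pooled size-matched input counts plus 1 for the 15402 enriched windows, both on log scales, coloured by feature class, with triangles for EEF1A1 and open squares for RPS19. Of the EEF1A1 windows, 14 of 15 lie far above the band of other windows, while RPS19 windows fall both above the band and within it.

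EEF1A1 encodes the elongation factor that brings aminoacyl-tRNAs to the ribosome. Its 15 windows held 545603 IP counts, 22.6% of the IP counts on the list, against 3842 input counts, 0.600% of the listed input. With 1 window per gene, the one with the most IP counts, its share of IP counts was 9.04%. All of the strong windows formed 1 unbroken run of 14 over 1261 bases at the 5′ end of the gene (chromosome 6, 73520027 to 73521287, minus strand). No window lay in its coding sequence or 3′ UTR, the parts of the mature mRNA that ribosomes and the 3′ end machinery occupy.

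Enrichment within this run was not uniform. The window at the annotated gene start (73520941 to 73521032) had replicate log2 odds ratios of 3.95, 4.41 and 4.49, with 76989 IP counts against 2214 input counts. At the other end, the window from 73520027 to 73520117 had 3.68, 3.86 and 4.13, with 3536 IP counts against 331 input counts. Both lie below every replicate of the 9 windows between them. Those 9 windows held 419016 IP counts against 1194 input counts, and their mean log2 odds ratios ran from 7.30 to 8.71. The ends differed from each other in IP counts. The window at the gene start had 83684 IP and 2407 input counts per 100 bases, the 9 between had 50913 IP and 145 input counts per 100 bases, and the inner end had the 3536 IP counts given above over 91 bases. The windows between are labelled 5′ UTR in the files. In the usual EEF1A1 transcript this stretch is the first intron, which the mature mRNA lacks.

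A further 3 windows lie before the RefSeq start, over the sequence printed above, and the files label them as exons of an mRNA. Counted away from the gene, they had 20123, 18004 and 7913 IP counts, against 64, 23 and 9 input counts. Their authors' mean log2 odds ratios were 8.06, 8.77 and 8.84. The window farthest upstream, which covers 73521203 to 73521287, had replicate values of 8.31, 8.71 and 9.50, the highest mean of the gene. IP counts therefore did not stop at the annotated start. The stretch of EEF1A1 from before its start through its first intron is widely used as a promoter in expression plasmids. IP cells carried a plasmid and input cells did not. No label names the plasmid's promoter, so RNA of the chromosomal gene and RNA from a plasmid cannot be told apart at this locus.

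RPS19 itself had 28 windows (chromosome 19, 41860675 to 41872828, plus strand), with 298683 IP counts against 5356 input counts, 12.4% of the listed IP and 0.836% of the listed input. Its 6 coding windows held 281119 IP counts against 4721 input counts. The largest, which covers 41869081 to 41869180 and is labelled as a start of coding sequence, had 112466 IP against 1890 input counts and replicate log2 odds ratios of 4.71, 5.14 and 5.34. The coding window from 41861162 to 41861212 had 59466 IP against 884 input counts and replicate values of 5.40, 5.88 and 6.13. A sixth coding window, 41861480 to 41861560, stood lower at 429 IP against 38 input counts and replicate values of 3.45, 3.51 and 3.80.

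Outside coding sequence, RPS19 windows fell into separate ranges. There were 4 with more than 1000 IP counts each, 16690 in sum against 364 input counts, and mean log2 odds ratios from 3.89 to 6.53. The window beside a splice site at 41860675 to 41860774 had 7341 IP against 45 input counts and replicate values of 6.19, 6.23 and 7.16. That at 41868931 to 41869030, which ends where a coding window begins, had 3254 IP against 61 input counts and values of 5.80, 5.89 and 6.98. A window over the whole MIR6797 hairpin, which holds the first pair of microRNAs printed above, had 2610 IP against 100 input counts and values of 3.71, 3.94 and 4.03. The remaining 18 windows held few counts, 874 IP counts in sum against 271 input counts. Their mean log2 odds ratios were 1.25 to 2.35, near the list's median of 2.03. They include all 6 windows in its 3′ UTR, with 244 IP against 59 input counts. The RPS19 plasmid was present in IP cells only, so the strong coding windows do not separate plasmid from chromosomal RNA.

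**Figure D2:**
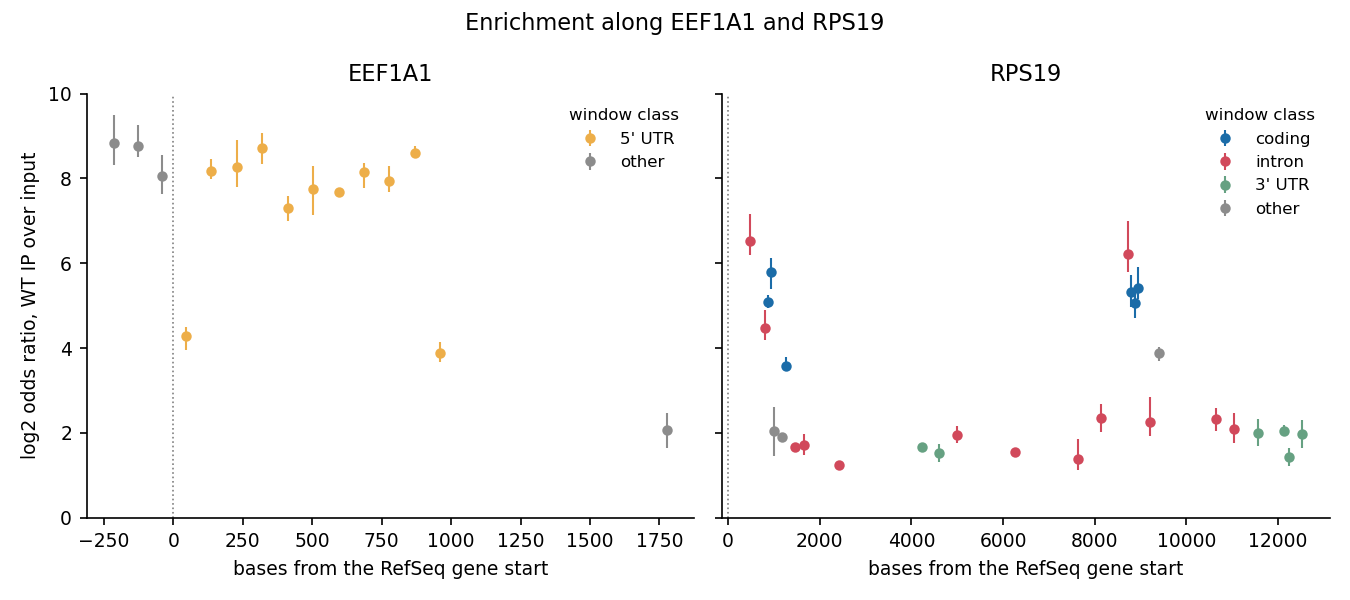
The authors' mean log2 odds ratio of WT IP over input (points) with the lowest and highest passing replicate (bars), for each window of EEF1A1 and RPS19 at its distance in bases from the RefSeq gene start, coloured by feature class. The EEF1A1 windows sit between 7.30 and 8.84 apart from those at the gene start, at the inner end of the run and at one distant site, and the RPS19 windows alternate between values above 3.5 and values near 2.

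By feature class, coding sequence held the largest share of windows, although among windows that passed in all 3 replicates introns did, with 36.3% against 26.5% for coding sequence. Over the whole list coding sequence had 5514 windows, 35.8% of the list (exact 95% interval 35.0 to 36.6), followed by introns with 4838 (31.4%, 30.7 to 32.2) and 3′ UTRs with 3295 (21.4%, 20.7 to 22.0). The 5′ UTRs had 537 (3.49%), exons of long non-coding RNAs 572 (3.71%) and all other classes 646 (4.19%). These intervals cover counting error only, and windows of 1 gene are not independent. The classes differed more in IP counts. The 5′ UTRs held 23.2% of IP counts and 3.32% of input counts, but 3.89% of IP counts once EEF1A1 and RPS19 were left out. Introns held 10.7% of IP and 6.71% of input counts. The other class held 17.5% of IP and 37.5% of input counts, and these counts were chiefly of small RNA exons. By windows, 446 of its 646 were labelled as exons of an mRNA and 77 as small RNA exons.

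**Figure D3:**
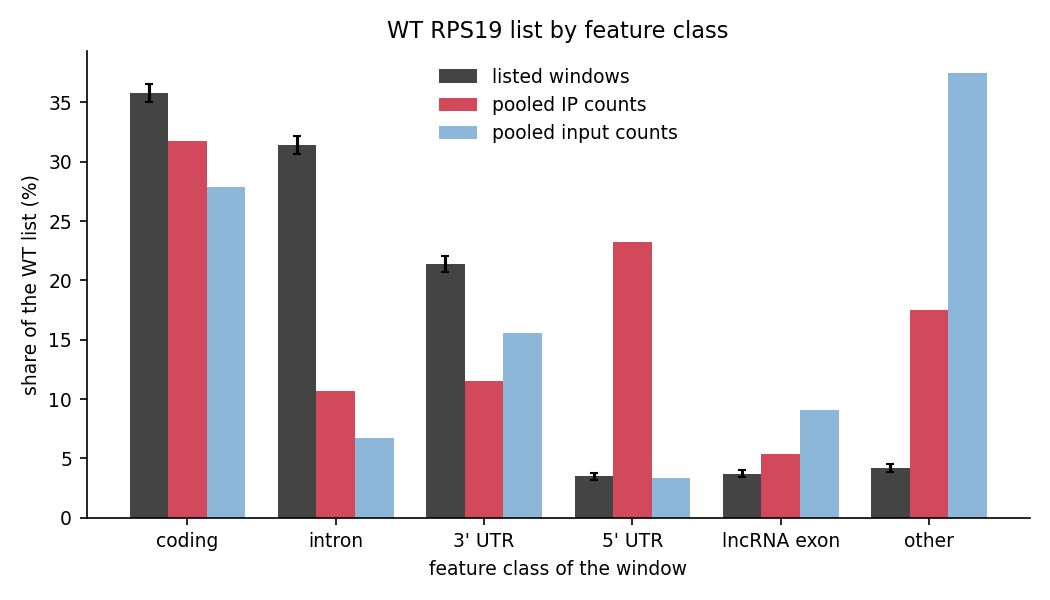
Share of the WT list by feature class, in percent of listed windows (dark, with exact 95% intervals), of pooled IP counts (red) and of pooled input counts (blue). The 5′ UTR class has 3.49% of windows and 23.2% of IP counts, and the other class has 37.5% of input counts.

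Windows in introns carried the highest log2 odds ratios as a class. Their median was 2.79, with 25% of them at 3.59 or above, whereas the class medians elsewhere were 1.72 in coding sequence, 1.84 in 3′ UTRs, 1.79 in 5′ UTRs and 1.90 in exons of long non-coding RNAs. The median replicate SD of windows that passed in all 3 replicates was 0.65 in introns and 0.35 in coding sequence. Intron windows also rested on the lowest input, with a median of 36 IP counts against 4 input counts, compared with 58 IP against 16 input counts in coding windows. Of the 520 windows with no input count, 483 were intronic. Among windows with at least 10 input counts, introns made up 10.6% and their median log2 odds ratio was 1.85, while coding sequence made up 47.3% with a median of 1.52. With 1 window per gene, the one with the most IP counts, introns made up 12.7%. As intron windows had the lower median IP count, that choice may itself lower their share. Most intron windows, 3033 (62.7%), lay away from splice sites, and 1805 (37.3%) were labelled as next or near to one.

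Outside EEF1A1 and RPS19, and with the highest window of each gene taken, the strongest windows were intronic sites with almost no input. In the protein kinase gene PRKCA, the window at 66757027 to 66757126 on chromosome 17 had 1010 IP counts against 1 input count, with replicate log2 odds ratios of 7.99, 9.31 and 10.11. An intron of ETV5, which encodes an ETS family transcription factor, had 880 IP counts against 0 input counts and values of 8.19, 8.56 and 9.53 (chromosome 3, 186107741 to 186107839). A KRT19 window, in the gene of a keratin of simple epithelia, had 488 against 0 and values of 7.52, 8.14 and 8.82. With the window of highest log2 odds ratio kept per gene, 5 more intronic windows were among the 10 highest, apart from that of RPS19. UBTD2 had 852 IP against 4 input counts, NBN 167 against 0 and WWP2 139 against 0. SNX6 had 605 against 6 and PSTPIP2 122 against 0. The mean log2 odds ratios of these 5 were 6.54 to 7.06. There were 12 EEF1A1 windows at 7.30 or above, higher than these 5. All of these intronic windows passed in every replicate, and in each gene the replicates stayed above the list's 75th percentile of 2.67. With an input of 0 or 1 the odds ratio has no firm upper bound, so their order is not resolved.

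Among windows with at least 10 input counts, the highest after EEF1A1 and RPS19 was in the coding sequence of SPIN4, a gene of the spindlin family of histone readers. It had 1042 IP against 16 input counts and replicate values of 4.98, 5.97 and 6.57 (chromosome X, 63350445 to 63350535). An intron window of FRAS1, an extracellular matrix gene, had 352 against 14 and values of 4.59, 4.77 and 5.57. SNX6, a sorting nexin gene, had 1436 against 48 and values of 3.35, 4.24 and 4.55 at 34568910 to 34569008 on chromosome 14, directly beside the SNX6 window named above. A SETD1A window had a wide spread, at 2.22, 2.95 and 6.88, so its mean of 4.02 depends on 1 replicate.

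Other genes were marked by many windows rather than by 1 strong site. GSE1 had the most, 170, of which 167 were intronic, with 7161 IP against 438 input counts and a median log2 odds ratio of 3.48. LMNA, the gene of lamins A and C, had 108 with 5064 IP against 218 input counts and a median of 4.18. Both medians lay above the list's 75th percentile of 2.67, on few input counts per window. The miR-34a host MIR34AHG had 131 (120 intronic) with a median of 1.83, and the casein kinase gene CSNK1E had 112 (95 intronic) with a median of 1.97. In MYCBP2, which encodes a large ubiquitin ligase, 95 of 97 windows were coding, with a median of 2.14. PI4KAP2, with 103 windows, and PI4KAP1 are near-identical copies, so their reads may be split between them. Windows often adjoined each other, as 5159 (33.5%) had a listed neighbour that began or ended at their edge. That share was 38.1% in introns, 36.6% in 3′ UTRs and 24.8% in coding sequence.

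The longest unbroken run belonged to CDKN1A, the p53 target that encodes the cell cycle inhibitor p21. Its 26 adjoining windows spanned 2507 bases (chromosome 6, 36678714 to 36681220, plus strand) with 3584 IP against 280 input counts and a median log2 odds ratio of 3.29. The second run, 22 windows over 2081 bases, was in BBC3, which encodes the apoptosis inducer PUMA, with 1805 IP against 169 input counts and a median of 2.89. Both genes were also in the list of p53 targets. Of its 26 members named for any IP protein, 22 (84.6%, exact interval 65.1 to 95.6) had a WT window, beside 38.0% of all such genes. A window that passed in all 3 replicates was found in 14 of the 26, beside 1098 of the 8697 genes. The 547 windows of the list's members were 67.6% intronic and had a median log2 odds ratio of 2.31, beside 31.4% and 2.03 over the whole list. Few members held most of them. MIR34AHG had 131 (120 intronic) with a median of 1.83, CDKN1A had 77 (55 intronic) and BBC3 had 72 (58 intronic). FDXR, a mitochondrial ferredoxin reductase gene, had 74 windows (58 intronic) with 4670 IP against 396 input counts and a median of 3.25. BTG2, an antiproliferative gene, had 31 with 2829 against 363 and a median of 2.88. MDM2, the ubiquitin ligase that degrades p53, had 19 with 2022 against 1106 and a lower median of 1.54. HEK293T cells express the SV40 large T antigen, which binds p53. The tables hold no RNA level of these genes in IP cells.

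Coding windows outside RPS19 were led by long or abundant mRNAs. HUWE1, the gene of a giant ubiquitin ligase, had 68 coding windows over 5.25 kb with 11050 IP against 3945 input counts and a median log2 odds ratio of 1.29. TUBB, a beta-tubulin gene, had 13 over 1.09 kb with 9739 against 3134 and a median of 1.26. ACTB, which encodes beta-actin, had 8 over 0.611 kb with 7170 against 2698 and a median of 0.94. Per kb of window, the pooled IP counts were therefore higher in ACTB and TUBB than in HUWE1, while all 3 medians lay below the 2.03 of the whole list. MT-CO1, on the mitochondrial chromosome, ranked between TUBB and ACTB by IP counts. It had 3 coding windows with 7382 IP against 4712 input counts and a median of 0.72. In 3′ UTRs the highest IP counts were in LENG8, with 16 windows and 5661 IP against 1429 input counts. The highest log2 odds ratios there at 10 or more input counts were in BTG2 with 3.56, BAX, which encodes a pro-apoptotic BCL2 relative, with 3.50 and the granulin gene GRN with 3.19.

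After EEF1A1, 5′ UTR windows were modest. RPLP2, a large subunit protein gene, had 2420 IP against 846 input counts in 1 window at 0.59, and PTMA, the prothymosin gene, had 2051 against 365 in 5 windows with a median of 2.90. C12orf57 had the highest value at 10 or more input counts after EEF1A1, with 452 IP against 52 input counts and replicates of 3.02, 3.19 and 5.05. Of the windows in exons of long non-coding RNAs, 42.3% passed in all 3 replicates, beside 22.8% over the list. MALAT1 and NEAT1, which are abundant nuclear transcripts, had 42 windows with 60943 IP against 35915 input counts and 66 windows with 15274 against 5350. Their median log2 odds ratios were 1.11 and 1.56. XIST followed by IP counts, with 7 windows, 9072 against 6814 counts and a median of 0.74. NORAD, a cytoplasmic RNA that binds Pumilio proteins, had 37 windows, 5275 against 1877 counts and a median of 1.79. In pseudogenes of PKD1, such as PKD1P1 with 68 windows, reads may be shared with the parent gene.

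The small RNA windows with the largest counts had low log2 odds ratios, although the median over small RNA exons was 1.95, near the list's 2.03. U3, the snoRNA that guides the early cuts of the ribosomal RNA precursor in small subunit assembly, has several near-identical copies, so counts of single copies are uncertain. Over the mature RNA of SNORD3A the window held 80072 IP against 62397 input counts, with log2 odds ratios of 0.62 and 0.92 in the 2 passing replicates. SNORD3B-1 had 18435 against 16624 at a mean of 0.43 and 23099 against 13573 at 0.45, and SNORD3C had 12766 against 8441 at 0.87. SNORD3D stood at 1.22, and SNORD3E was far apart at 5.45, with only 196 IP against 7 input counts.

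Windows beyond the mature U3 were more enriched than those over it. RefSeq gives these U3 genes 217 bases (215 for SNORD3E), while the files label windows up to 790 bases after the start as small RNA exon. The 16 windows wholly beyond the RefSeq end, in 4 copies, held 2954 IP against 202 input counts and had mean log2 odds ratios of 2.32 to 4.64. In SNORD3A, the window 599 to 698 bases after the start had 152 IP against 9 input counts and replicates of 3.84, 3.98 and 4.21. In SNORD3B-1 the highest such window had 197 against 5 and replicates of 3.61, 4.13 and 6.17. All 16 values lie above those of SNORD3A, SNORD3B-1, SNORD3C and SNORD3D over the mature RNA, and below that of SNORD3E.

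**Figure D4:**
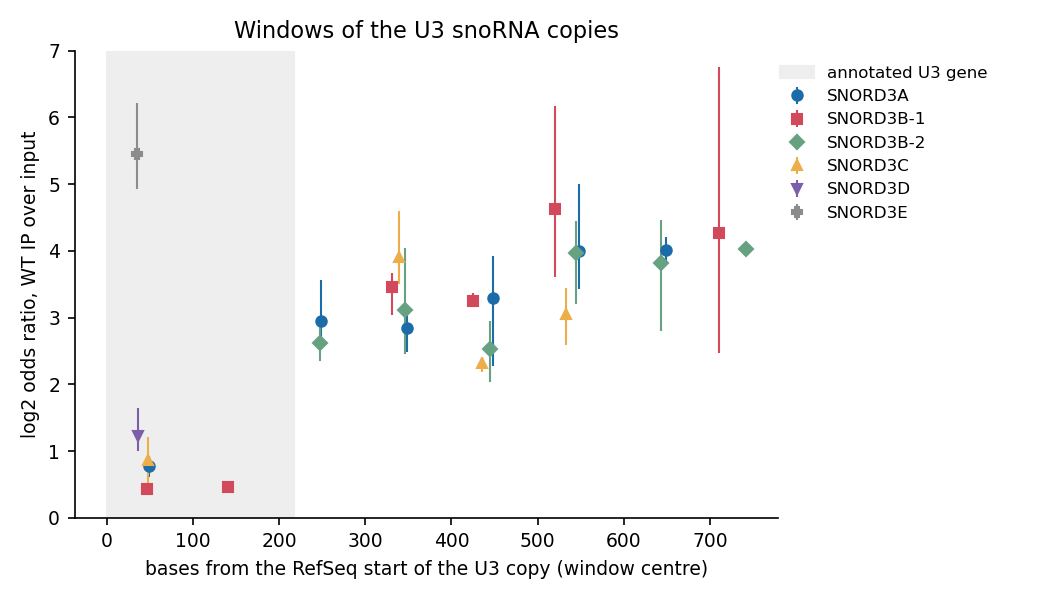
The authors' mean log2 odds ratio of WT IP over input, with the lowest and highest passing replicate as bars, for each window of 6 U3 copies at its centre's distance in bases from the RefSeq start, with the 217 bases of the gene shaded. Apart from SNORD3E at 5.45, windows within the shading lie at 0.43 to 1.22 and windows to its right at 2.32 to 4.64.

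Other abundant small RNAs had log2 odds ratios below the list's median. U8 (SNORD118), a snoRNA of large subunit assembly, had 17646 IP against 9552 input counts at 0.85 and 3822 against 1584 at 1.38. The U2 spliceosomal RNA copies RNU2-1 and RNU2-2P had 25519 against 19864 at 0.86 and 29060 against 23044 at 0.84. The copies RNU2-4P and RNU2-5P stood higher. RNU2-4P had 4717 against 442 and replicates of 3.71, 3.83 and 4.57, and RNU2-5P had 85 against 4 and replicates of 3.90, 5.09 and 5.32. U2 copies are near-identical as well, so reads cannot be firmly placed among them. Vault RNA 1-2 and the telomerase RNA TERC, which templates telomere repeats, had 0.98 and 0.64. On the mitochondrial chromosome, 15 coding windows of 7 genes had mean values of only 0.45 to 1.37, whereas the histidine tRNA gene MT-TH had 13180 IP against 1652 input counts and a mean of 3.55.

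Windows with the microRNA label MIR6724-1 formed a run of 8 that ended 48 bases before the RefSeq start of RNA45SN2, a copy of the ribosomal RNA precursor (chromosome 21, 8205215 to 8205940, plus strand). They held 1816 IP against 54 input counts. The first window of the run stood lowest, with replicates of 2.26, 2.32 and 2.38, and the fourth highest, with 4.57, 5.10 and 5.34. The ribosomal RNA genes recur in many copies, so the copy of origin is not known. Of 1562 RefSeq hairpins, 15 overlapped a WT window on their own strand. The MIR16-1 hairpin had the same edges as its window (chromosome 13, 50048973 to 50049061), with 27 IP against 1 input count and values of 3.85 and 4.92 in the 2 passing replicates. That window is labelled as a small RNA exon, as is that of MIR6797, which also has its hairpin's edges. The match may therefore come from how windows were cut, and it does not show where reads ended. A window over 41 bases of the MIR34A hairpin had 95 against 15 and values of 1.55 to 2.18. Other windows, 2 in number, covered MIR3191 within the BBC3 run, with means of 4.13 and 3.31.

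Among repeat elements, whose reads are counted per family rather than per locus, transfer RNAs had the most elements, 34 of the 79. They held 372655 IP against 100073 input counts, 41.0% of the elements' IP counts, whereas the 4 small nuclear and nucleolar RNAs held more, 481878 IP against 337370 input counts. For repeat elements the lowest and highest values cover all 3 replicates. The tRNA median log2 odds ratio was 1.72, and 30 of the 34 passed in all 3 replicates. The highest was tRNA-Thr-ACY, with replicates of 2.00, 2.71 and 3.76, followed by tRNA-Ser-TCA(m) with 2.31, 2.78 and 3.17. The aspartate family tRNA-Asp-GAY alone held 88865 IP against 14678 input counts, 23.8% of the tRNA IP counts, with replicates of 2.00, 2.04 and 2.55. At the low end, tRNA-Glu-GAG_ had 40363 against 29529 and replicates of -1.26, 0.88 and 1.18, and 1 further family, tRNA-Thr-ACG, also had a replicate below 0. Elements for 16 amino acid labels, selenocysteine included, were on the list.

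The remaining elements were U3, U6, U7 and U8, 24 simple repeats and 17 transposon or satellite families. U3 had the most IP counts of any element, 343998 against 279967, at replicates of 0.27, 0.60 and 0.76. U7, the small RNA of histone mRNA processing, had 592 against 120 and replicates of 1.81, 2.26 and 3.47. U6, of the spliceosome, had 112805 against 44476 and a mean of 1.47. The highest element of all was the simple repeat (CGAGCCG)n, with 1076 IP against 20 input counts and replicates of 4.19, 4.47 and 5.42. The other simple repeats had means of 0.55 to 2.63. Transposon and satellite families had means of 0.63 to 2.23, led by LTR47A2 with 164 against 31 and L1MA10 with 3740 against 1471.

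**Figure D5:**
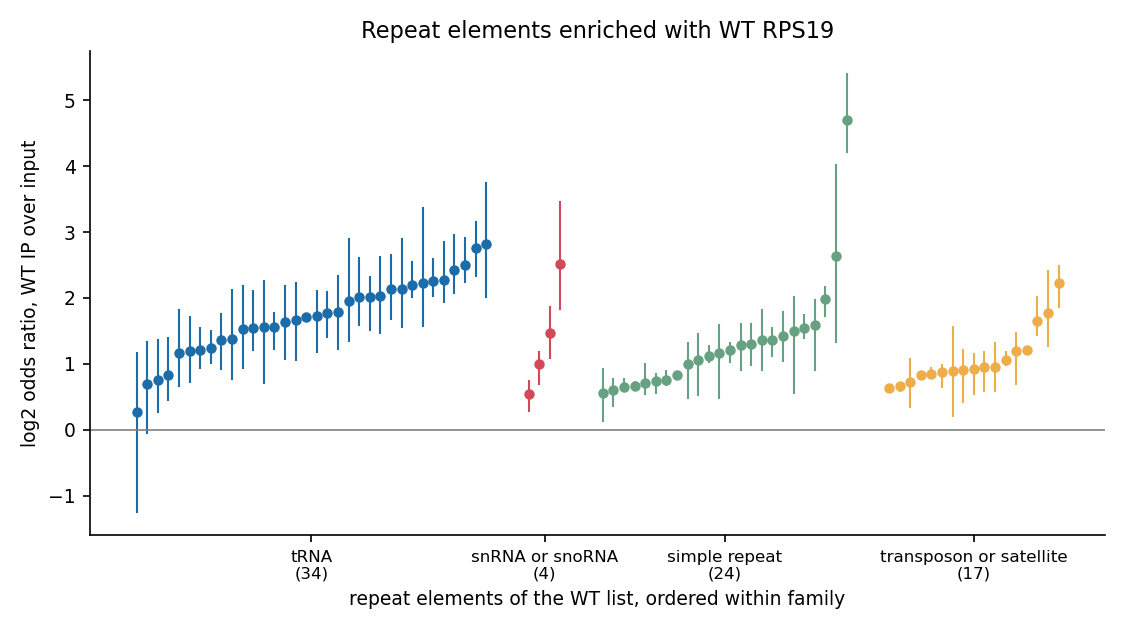
The authors' mean log2 odds ratio of WT IP over input for the 79 repeat elements, with the lowest and highest of 3 replicates as bars, ordered within 4 families. Most tRNA elements lie between 1 and 3, the bars of 2 tRNA elements reach below 0, and 1 simple repeat stands highest at 4.69.

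The gene lists of translation and ribosome assembly had windows in part of their members, to be read beside the 38.0% of all listed genes that had a WT window. Of small subunit ribosomal protein genes, 15 of the 30 listed for any IP protein (50%) had a WT window when RPS19 was left out, and the median log2 odds ratio of their 30 windows was 1.56. RPS29, RPS9 and RPS20 had the most IP counts, 1948 against 843, 1142 against 493 and 676 against 376. Large subunit protein genes had 28 of 47 (59.6%), with a median of 1.47, and initiation factors 21 of 34 (61.8%), with a median of 1.58, led by the helicase gene EIF4A1 with 2644 against 1181. Elongation factors without EEF1A1 had 5 of 8 (62.5%) and a median of 1.54. These shares lie above that of all genes, and the medians lie below the list's 2.03. Fewer members had a window that passed in all 3 replicates. Without RPS19 and EEF1A1, it was 3 of 30 small subunit genes and 3 of 8 elongation factors. For large subunit genes it was 7 of 47 and for initiation factors 6 of 34, beside 1098 of all 8697 genes. The exact intervals of the small subunit genes (31.3 to 68.7) and the elongation factors (24.5 to 91.5) include 38.0%. For the large subunit genes the interval was 44.3 to 73.6, and for the initiation factors 43.6 to 77.8. These intervals cover counting error only, and no set test was run.

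Small subunit biogenesis factors had 13 of 53 (24.5%, exact interval 13.8 to 38.3), beside 38.0% of all genes, and 212 of their 239 windows were in the casein kinase genes CSNK1E and CSNK1D. NOP56, a core protein of box C/D snoRNPs such as U3, had 5 windows with a median of 1.41. Of Diamond-Blackfan anemia genes, 14 of 25 (56.0%, exact interval 34.9 to 75.6) had a window, against the same 38.0%. After RPS19 itself the most IP counts among them were in RPS29, with 1948. SR proteins and hnRNPs, the splicing regulators, had 30 of 33 (90.9%, beside 38.0% of all genes) and a median of 1.36, led by PTBP1 with 53 windows (30 intronic) and a median of 2.14. Chaperones had 26 of 29 (89.7%, beside 38.0%) and a median of 1.76. HSPA8, the constitutive HSP70 gene, led them with 3283 IP against 819 input counts and 13 of 15 windows passing in all 3 replicates.

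Beside the 38.0% of all genes, actins and tubulins had 8 of 12 (66.7%, exact interval 34.9 to 90.1) with a median of 1.28. For snoRNA host transcripts it was 11 of 18 (61.1%, exact interval 35.7 to 82.7) with 1.54. Both intervals include 38.0%. Integrated stress response genes, at 5 of 13 (38.5%) with 1.82, were near the share of all genes. Mitochondrially encoded transcripts had 8 of 8, at a median of only 0.72. Of the 9 erythroid genes listed for any IP protein, only TFRC had windows (11.1%, exact interval 0.28 to 48.2, which includes 38.0%). TFRC, the transferrin receptor gene, is not restricted to red cells, and it had 9 windows with a median of 2.23. Of 12 markers of HEK293 cells, 4 were listed for any IP protein and only VIM had a WT window, with 134 IP against 76 input counts at 0.75. A list of enriched windows gives no RNA level, so absence from it does not show that a marker was absent.

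WT windows were set beside the longer lists of the substitutions, with 86567 windows for R62W and 93331 for R101H. At the same coordinates and strand, 79.6% of WT windows were also listed for R62W and 72.0% for R101H, and 2684 (17.4%) were listed for neither. Of these 2684, 2261 were intronic. Of intron windows 48.7% were also listed for R62W and 33.7% for R101H, whereas for coding windows the shares were 93.9% and 89.9%, and for 3′ UTR windows 95.2% and 93.2%. The lists differ in make-up. R62W and R101H had 46024 and 50152 coding windows, beside 5514 for WT, but only 11676 and 10010 intron windows, beside 4838. How far this make-up sets the shares was not tested. With at least 10 input counts the intron shares were 68.7% and 53.1%, and the coding shares 95.1% and 92.6%. Some genes accounted for many such intron windows. EPHA2, an ephrin receptor gene, had 52 intron windows for WT, 3 for R62W and 0 for R101H. NBPF20 had 43, 106 and 129, in the opposite order. The series holds only 3 size-matched inputs, so the 3 lists share input samples and their overlap is not independent. Each list is a single call over its replicates, so no test of these differences was made.

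The G and C content of WT windows had a median of 0.50. It was highest in 5′ UTRs at 0.566 and in introns at 0.540, and lowest in 3′ UTRs at 0.447, with coding sequence at 0.486. The richest bin, above 0.577, held 3382 windows with a median log2 odds ratio of 2.30 and a median of 6 input counts, and 47.4% of its windows were intronic. The poorest bin, up to 0.29, held 280 windows with a median of 2.02 and 15.5 input counts, and 68.2% of them were in 3′ UTRs. Base composition, class and input count therefore moved together over the list, and their separate parts were not tested.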

How the data were processed

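Counts, enrichment values and annotations were taken as the authors deposited them. Per the submitters' processing notes, fastp and STAR were used on the GRCh38 build. Their versions and the window caller were not stated in the labels or headers. Per the file headers, each table holds pooled whole-number read counts of IP and of input, log2 odds ratios, p-values and q-values, the G and C fraction per window, and another quantity, the number of replicates that passed. Which inputs were used for which list is not stated in the headers.

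Python 3.11.15 with pandas 2.3.3 and scipy 1.17.1 was used to compute shares with exact Clopper-Pearson 95% intervals, medians and overlaps. Intervals cover counting error only. No test was run, because counts are pooled and replicate values carry no label. Window starts were written 1-based. Windows annotated with several genes were counted under each. The remaining replicate value was taken as 3 times the mean minus the lowest and the highest. The scripts were tested on simulated data.

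Genes were named by fixed rules: the 10 with the most IP counts and windows, the 10 with the highest log2 odds ratio among windows that passed in all 3 replicates (also at 10 or more input counts), the leading genes per class and list, and the leading repeat elements. Runs, segments of EEF1A1 and RPS19, U3 flanks, hairpins, EPHA2, MDM2, RNU2-5P and MIR6724-1 were chosen after their values were seen. Members and lists were chosen with earlier results of these data known. The result of 1 gene list is not reported here.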

Additional observations from a re-analysis of the deposited data

How the results depend on the processing

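Counts are pooled, replicate values are unlabelled, unlisted windows cannot be described, and the median window rests on 49 IP and 11 input counts. No paired analysis was possible because the columns carry no replicate number and no test was run, and single replicates could not be left out for the same reason. The median log2 odds ratio, 2.03 as reported, was 1.60 to 2.33 under the alternatives run, and lowest with at least 10 input counts. These values lie within the median replicate SD of a single window, 0.46. That SD does not measure the uncertainty of a median over the list. The order of coding sequence and introns by windows turned over among windows that passed in all 3 replicates. Shares of windows and counts moved, and the cause was not tested beyond what each restriction removes.

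With a highest q of at most 0.05, windows were 30.4% coding, 28.5% intronic and 26.3% 3′ UTR. IP counts were then 27.6% coding, 5.87% intronic, 35.9% 5′ UTR and 6.98% 3′ UTR, with 37.7% in EEF1A1 and 20.6% in RPS19. The IP to input ratio was 5.37, 32.6% of windows passed in all 3 replicates, 87.7% were listed for R62W and 80.6% for R101H, the median G and C fraction was 0.48, and 50 repeat elements remained. With windows that passed in all 3 replicates, windows were 26.5% coding and 36.3% intronic, so that introns exceeded coding sequence. IP counts were 31.0% coding, 9.29% intronic, 37.5% 5′ UTR and 7.09% 3′ UTR, with 39.5% in EEF1A1 and 21.6% in RPS19. The ratio was 7.49, and 85.9% were listed for R62W and 77.6% for R101H. Such a window was found in 100 gene list members, of 216, beside 1098 of the 3307 genes with a WT window.

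With 1 window per gene, the one with the most IP counts, windows were 39.1% coding, 12.7% intronic and 33.3% 3′ UTR. IP counts were 33.6% coding, 5.80% intronic, 12.6% 5′ UTR and 12.1% 3′ UTR, with 9.04% in EEF1A1 and 19.3% in RPS19. The ratio was 2.66, 24.8% passed in all 3, 89.1% were listed for R62W and 82.3% for R101H, and the G and C fraction was 0.475. With at least 10 input counts, windows were 47.3% coding, 10.6% intronic and 28.0% 3′ UTR. IP counts were 33.2% coding, 4.98% intronic and 25.9% 5′ UTR, with 25.1% in EEF1A1 and 13.9% in RPS19. The ratio was 3.52, 28.1% passed in all 3, 93.0% were listed for R62W and 88.9% for R101H, and the G and C fraction was 0.481. Without EEF1A1 and RPS19, IP counts were 30.9% coding, 15.5% intronic, 3.89% 5′ UTR and 17.7% 3′ UTR, and the ratio was 2.49.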
